A study of Mus musculus with 6 samples.

Results

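The 10 genes described here encode subunits and inhibitors of NF-kB, measured on 6 whole-transcript arrays of mouse peritoneal macrophages. The subunit genes are Nfkb2, Rel, Rela and Relb. The inhibitor genes are Nfkbia, Nfkbib, Nfkbie, Nfkbiz, Tnfaip3 and Bcl3. They were taken by name from a list, and each of the 10 had 1 probe set among the 25206 of the deposited table. NF-kB is a family of dimeric transcription factors held in the cytoplasm of resting cells by IkB proteins. A signal from a Toll-like, interleukin-1 or TNF receptor activates a kinase that marks the IkB protein for destruction, and the freed dimer enters the nucleus. In macrophages the dimers switch on cytokine, chemokine and adhesion genes, and also the genes of several of their own inhibitors, which ends the response.

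The macrophages came from the peritoneal cavity 4 days after an injection of 1 mL of 4% thioglycollate, an irritant that recruits them. The 3 Tet2-/- samples came from Tet2-deficient C57BL/6J mice and the 3 wild-type samples from their littermates, and mouse age was not stated in the labels. Tet2 encodes an enzyme that oxidises 5-methylcytosine in DNA, and how it was disrupted is not given in the sources used here. All 6 samples were cultured without added stimulus and lysed for RNA 10 h after plating. The labels number them as biological replicates 4, 5 and 6 in each genotype without stating that they are different animals, and the p-values describe only how these samples vary. In bulk RNA, fewer cells of a type and less RNA per cell cannot be told apart.

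The genotype characteristic contradicts the sample title for 4 of the 6 samples, and groups follow the title. By the characteristic, wild-type replicates 5 and 6 would be Tet2-/-, and Tet2-/- replicates 4 and 6 would be wild-type. The Tet2 probe set does not settle this, since it read 4.35, 3.74 and 3.79 in wild-type and 3.80, 4.05 and 3.67 in Tet2-/- replicates 4, 5 and 6, and the part of the gene that its probes read is not given in the sources used here. The array of Tet2-/- replicate 6 stood apart, with the highest median (2.93 against 2.77 to 2.82) and the narrowest interquartile range (2.99 against 3.16 to 3.33). All levels below are log2 RMA values, a scale of background-corrected, quantile-normalized intensity on which 1 unit is a doubling. Levels of different genes are not compared, because each probe set has its own response. Macrophage markers were present on every array (Adgre1, a macrophage surface receptor, between 7.79 and 8.90, and Itgam, the integrin chain CD11b, between 8.95 and 10.29).

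Several of these genes carry binding motifs for NF-kB itself close to their start. The NF-kB consensus motif was searched on both strands of RefSeq promoter windows (GRCm38.p6, 250 bases before to 50 after a transcript start). Its letters were GGGRNNYYCC, where R is A or G, Y is C or T and N is any base. Of the 10 genes, 8 had a window, and Relb and Nfkbiz had none in the table used. A match lay in a window of 6 of the 8 genes, namely Nfkb2, Rel, Nfkbia, Nfkbie, Tnfaip3 and Bcl3, while Rela and Nfkbib had no such letters in theirs. Over all promoters, 9.55% of 27025 genes had a match. By window, 8 of 11 windows of these genes and 8.46% of all 32851 windows had one. Windows of the same gene can overlap, and 1 Nfkb2 site (GGGACTTTCC) lies in both its windows 2 and 3. A stricter form of the motif (3 G, any 2 bases, 3 T and 2 C, both strands) was present for 4 of the 8 genes (Nfkb2, Rel, Nfkbia and Tnfaip3) and for 1.89% of all genes, and each of its matches here was also a consensus match. A match is a description of letters, and binding was not measured.

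Shown first are the 250 bases before the start of Nfkbia and before the most upstream annotated start of Nfkb2 in the table, because these 2 genes had the smallest unadjusted p-values between genotypes. Capitals mark consensus matches and each sequence reads 5′ to 3′ on the gene's strand. The Nfkbia stretch is chr12:55492648-55492897, minus strand, with 1 match that begins 29 bases before the start. The Nfkb2 stretch is chr19:46304487-46304736, plus strand, with 3 matches that begin 39, 38 and 11 bases before the start, of which the 2 farther ones overlap.
Nfkbia: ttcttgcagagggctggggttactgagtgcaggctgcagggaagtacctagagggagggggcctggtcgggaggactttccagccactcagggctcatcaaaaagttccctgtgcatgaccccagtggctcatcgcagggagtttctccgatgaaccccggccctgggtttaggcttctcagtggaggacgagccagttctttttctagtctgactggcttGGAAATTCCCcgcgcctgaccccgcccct
Nfkb2: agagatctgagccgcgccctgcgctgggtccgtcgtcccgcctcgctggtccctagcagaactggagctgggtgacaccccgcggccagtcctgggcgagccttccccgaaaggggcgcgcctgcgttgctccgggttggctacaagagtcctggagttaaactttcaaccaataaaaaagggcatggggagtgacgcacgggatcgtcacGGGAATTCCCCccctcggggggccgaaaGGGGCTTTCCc

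The sites of 3 further genes are shown with their flanks beside that of Nfkbia, each on its gene's strand. The capitals of Nfkbia, Rel and Tnfaip3 match the motif on the opposite strand. Those of Nfkbie match it on the gene's own strand, so its letters run in the other orientation. The Rel site is chr11:23771041-23771070, minus strand, and holds a match 91 bases before the start that overlaps another at 92. The Nfkbie site is chr17:45555584-45555613, plus strand, 106 bases before the start. The Tnfaip3 site is chr10:19015403-19015432, minus strand, 12 bases before the start of window 2, the more upstream of its windows. That window holds another match at 125 bases, and window 1 of Tnfaip3 holds none. Rel and Tnfaip3 share the same 10 capitals.
Nfkbia: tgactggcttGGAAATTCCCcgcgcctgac
Rel: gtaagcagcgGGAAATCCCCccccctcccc
Nfkbie: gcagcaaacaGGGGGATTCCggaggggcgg
Tnfaip3: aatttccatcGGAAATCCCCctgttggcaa

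Between Tet2-/- and wild-type macrophages, no subunit or inhibitor gene differed past the threshold. Of the 10 genes, 5 had a higher and 5 a lower mean in Tet2-/-, with a median difference of 0.03 log2 units, beside a median of 0 and 49.2% of probe sets higher over all 25206. The differences ran from -0.14 for Nfkbie to 0.41 for Nfkb2. By limma's moderated test, 0 of the 10 passed an adjusted p of 0.05, where the background was 0% of probe sets (the smallest adjusted p of all probe sets was 0.197). At an unadjusted p under 0.05 the count was again 0 of 10, beside a background of 3.61%. The 95% confidence interval of each of the 10 differences included 0, and taken over the genes the intervals reached from -0.68 to 0.84.

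**Figure D1:**
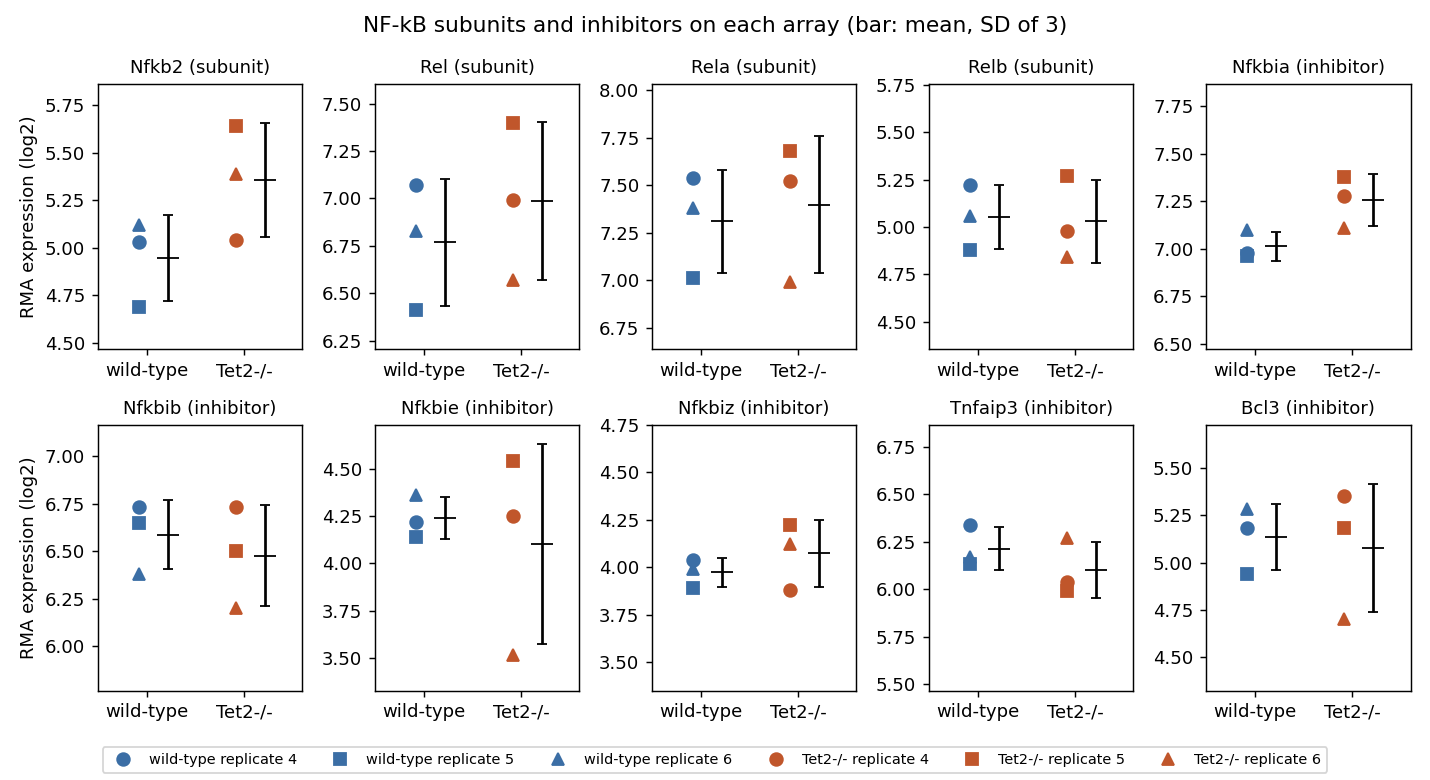
Log2 RMA expression (y axis) of the 4 subunit and 6 inhibitor genes on each of the 6 arrays, by genotype (x axis), with the replicate number as the point's shape and the mean with SD of 3 beside the points; every panel spans the same height. The Tet2-/- points lie above all wild-type points for Nfkbia, and the genotypes overlap for the other 9 genes.

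Nfkb2 had the largest difference of the subunits. It encodes a precursor that acts as an inhibitor until it is processed into the partner of RelB in the non-canonical pathway. Its level was 5.03, 4.69 and 5.12 in wild-type and 5.04, 5.64 and 5.39 in Tet2-/- replicates 4, 5 and 6. Tet2-/- replicates 5 and 6 lay above every wild-type array, and replicate 4 lay among them. The means were 4.95 ± 0.227 and 5.36 ± 0.301 (SD, n = 3 each), and the difference was 0.41 ± 0.188 (standard error, 95% confidence interval -0.02 to 0.84, limma unadjusted p = 0.0576, adjusted p = 0.998). With single arrays left out the difference lay between 0.27 and 0.57, and under the grouping by characteristic it was -0.0033.

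The 3 subunits with a transactivation domain showed a spread among arrays that did not follow genotype. Rel, which encodes the lymphoid and myeloid subunit c-Rel, read 7.07, 6.41 and 6.83 in wild-type and 6.99, 7.40 and 6.57 in Tet2-/- replicates 4, 5 and 6. Rela, the main activating subunit of the canonical pathway, read 7.54, 7.01 and 7.38 in wild-type and 7.52, 7.68 and 6.99 in Tet2-/-. Relb, the subunit of the non-canonical pathway, read 5.22, 4.88 and 5.06 in wild-type and 4.98, 5.27 and 4.84 in Tet2-/-. For all 3 genes the highest array was Tet2-/- replicate 5, the next was wild-type replicate 4, and the lowest 2 were wild-type replicate 5 and Tet2-/- replicate 6. The genotype differences were 0.22 for Rel (standard error 0.238), 0.087 for Rela (0.211) and -0.02 for Relb (0.160), each with a limma adjusted p of 0.998. The range over the 6 arrays was 0.99 for Rel and 0.69 for Rela. Rel was at 0.01 without Tet2-/- replicate 5, at 0.037 without wild-type replicate 5, at 0.37 without wild-type replicate 4 and at 0.425 without Tet2-/- replicate 6. Rela was at -0.06 without wild-type replicate 5 and at -0.055 without Tet2-/- replicate 5, and Relb ran from -0.14 to 0.07 with single arrays left out, so neither Rela nor Relb kept a direction.

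Nfkbia was the gene of the 10 whose genotypes did not overlap. It encodes IkB-alpha, the inhibitor that NF-kB itself rapidly induces after activation. Its level was 6.98, 6.96 and 7.10 in wild-type and 7.28, 7.38 and 7.11 in Tet2-/- replicates 4, 5 and 6. The lowest Tet2-/- array, replicate 6, lay 0.01 above the highest wild-type array. The means were 7.01 ± 0.0757 and 7.26 ± 0.137 (SD, n = 3 each), and the difference was 0.24 ± 0.133 (standard error, 1.18-fold, 95% confidence interval -0.06 to 0.55, limma adjusted p = 0.998). Non-overlap was found for 1 of the 10 genes and for a background of 7.41% of all probe sets (3.33% with Tet2-/- higher), so the count for these genes is near what the whole table shows. The difference was 0.18 to 0.32 with single arrays left out and 0.02 under the grouping by characteristic.

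The other cytoplasmic IkB genes had lower means in Tet2-/-, with overlap. Nfkbib encodes IkB-beta, which is degraded and replaced more slowly than IkB-alpha. It read 6.73, 6.65 and 6.38 in wild-type and 6.73, 6.50 and 6.20 in Tet2-/- replicates 4, 5 and 6, and the difference was -0.11 ± 0.172 (standard error, limma adjusted p = 0.998). Nfkbie encodes IkB-epsilon, which holds c-Rel and RelA complexes. It read 4.22, 4.14 and 4.36 in wild-type and 4.25, 4.54 and 3.52 in Tet2-/-. Both the highest and the lowest array of Nfkbie were therefore Tet2-/- arrays, and its SD was 0.526 in Tet2-/- against 0.111 in wild-type (n = 3 each). Its difference of -0.14 (standard error 0.239, limma adjusted p = 0.998) was 0.155 without Tet2-/- replicate 6. That of Nfkbib was 0.028 without the same array.

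Nfkbiz and Bcl3 encode nuclear IkB proteins, which bind NF-kB on DNA and can activate or repress its targets. Nfkbiz, needed for the secondary induction of genes such as Il6 and Lcn2, read 4.04, 3.89 and 3.99 in wild-type and 3.88, 4.22 and 4.12 in Tet2-/- replicates 4, 5 and 6. Bcl3, which pairs with the subunits that lack a transactivation domain, read 5.18, 4.94 and 5.28 in wild-type and 5.35, 5.18 and 4.70 in Tet2-/-. The lowest array was a Tet2-/- array for both genes, replicate 4 for Nfkbiz and replicate 6 for Bcl3, and the genotypes overlapped. The differences were 0.10 (standard error 0.140) for Nfkbiz and -0.06 (0.189) for Bcl3, with a limma adjusted p of 0.998 each. Nfkbiz was at 0.027 without Tet2-/- replicate 5, at 0.058 without wild-type replicate 5 and at 0.20 without Tet2-/- replicate 4. Bcl3 was at 0.13 without Tet2-/- replicate 6 and at 0.017 without wild-type replicate 6.

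Tnfaip3 encodes A20, a ubiquitin-editing enzyme that shuts off signalling upstream of the IkB kinase. It read 6.34, 6.13 and 6.17 in wild-type and 6.04, 5.99 and 6.27 in Tet2-/- replicates 4, 5 and 6. Tet2-/- replicates 4 and 5 lay below every wild-type array, whereas replicate 6 lay within them. The difference was -0.11 ± 0.139 (standard error, 95% confidence interval -0.43 to 0.20, limma adjusted p = 0.998), and -0.20 to -0.05 with single arrays left out. Among the inhibitors, Nfkbia and Tnfaip3 are both textbook NF-kB targets, and here their means lay on opposite sides of wild-type, neither past the test.

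**Figure D2:**
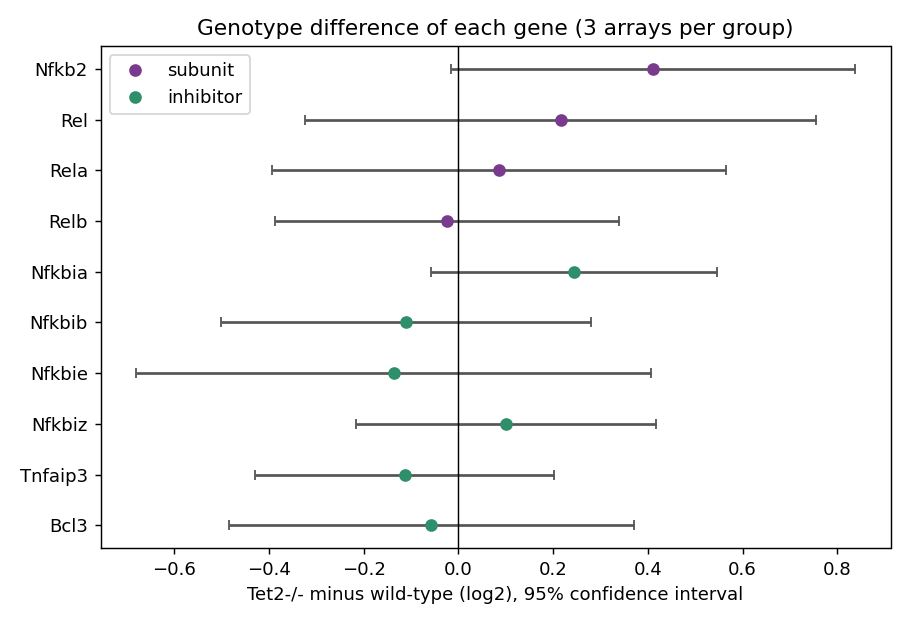
Difference between Tet2-/- and wild-type means (x axis, log2 units, 3 arrays per group) for each gene (y axis), with points for subunits and inhibitors and lines for the limma 95% confidence interval. All 10 lines cross 0, and the line of Nfkb2 reaches farthest to the right, to 0.84.

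The 6 arrays differed among themselves for these genes. On Tet2-/- replicate 5, 8 of the 10 genes stood above their own 6-array mean and 7 had their highest value. On Tet2-/- replicate 6, 3 of the 10 stood above their mean and 5 had their lowest value. On wild-type replicate 5 only Nfkbib stood above its mean. Wild-type replicate 4 had 8 genes above, wild-type replicate 6 had 5 and Tet2-/- replicate 4 had 6. The mean deviation over the 10 genes was 0.08, -0.18 and 0.01 in wild-type and 0.05, 0.23 and -0.18 in Tet2-/- replicates 4, 5 and 6, so each genotype held an array near -0.18. Nfkb2, Nfkbiz and Tnfaip3 were the genes that stood above their mean on Tet2-/- replicate 6.

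Markers of cell types also moved across the arrays, in directions that differed between lists. The mean deviation of 7 macrophage markers was 0.17, -0.17 and -0.13 in wild-type and 0.21, 0.35 and -0.42 in Tet2-/- replicates 4, 5 and 6. It was highest on Tet2-/- replicate 5 and lowest on Tet2-/- replicate 6. For 11 markers of resident large peritoneal macrophages it was -0.07, -0.52 and -0.32 in wild-type and 0.50, 0.79 and -0.38 in Tet2-/-. In mean, 4 of the 7 macrophage and 8 of the 11 large peritoneal macrophage markers were higher in Tet2-/-, with median differences of 0.15 and 0.56. For 10 measured B-cell markers the mean deviation was -0.35, -0.29 and -0.20 in wild-type and 0.29, 0.78 and -0.22 in Tet2-/-. B cells also express Rel, Relb, Nfkb2 and Nfkbie. The mean log2 level of the B-cell list ranged from 2.75 to 2.90 in wild-type and from 2.88 to 3.88 in Tet2-/-, with 9 of 10 markers higher in mean. Of its defining markers, Cd79a lay between 2.99 and 5.22 in Tet2-/- and between 2.49 and 3.00 in wild-type. Cd79b lay between 4.36 and 6.12 in Tet2-/- and between 3.27 and 3.79 in wild-type, and Ms4a1 between 2.18 and 4.21 in Tet2-/- and between 1.71 and 2.26 in wild-type. The exception in the list was Cd22, an inhibitory receptor, which lay between 5.23 and 5.50 in Tet2-/- and between 6.07 and 6.21 in wild-type, a difference of -0.80 (limma unadjusted p = 0.000208, adjusted p = 0.483). The lists for monocytes (4 measured, 4 higher), T and NK cells (9, 6 higher), neutrophils (9, 5 higher), eosinophils (5, 2 higher), mast cells (6, 3 higher) and dendritic cells (7, 5 higher) had median differences of 1.25, 0.03, 0.05, -0.01, 0.03 and 0.06 in that order. By mean deviation, the T and NK cell (0.18) and neutrophil (0.18) lists were highest on Tet2-/- replicate 6. Both lists were dim. The mean log2 level of the T and NK cell list was 2.04 to 2.25 in wild-type and 2.10 to 2.36 in Tet2-/-, below every array's median. That of the neutrophil list was 3.00 to 3.15 and 3.03 to 3.28, little above those medians. The eosinophil (-0.25) and dendritic cell (-0.14) lists were lowest on Tet2-/- replicate 5. The monocyte (1.31) and mast cell (0.09) lists were highest on that array. Single markers lay far from the median of their list. Itgax of the dendritic cell list differed by -1.49 (limma adjusted p = 0.197). Siglecf of the eosinophil list differed by -1.21 (limma adjusted p = 0.879). In the other direction, Alox15 of the large peritoneal macrophage list differed by 2.08 (limma adjusted p = 0.998). Ccr2 of the monocyte list, nearer to its list's median, differed by 1.38 (limma adjusted p = 0.665). The part of these cell types and of array quality in the NF-kB gene values was not tested.

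**Figure D3:**
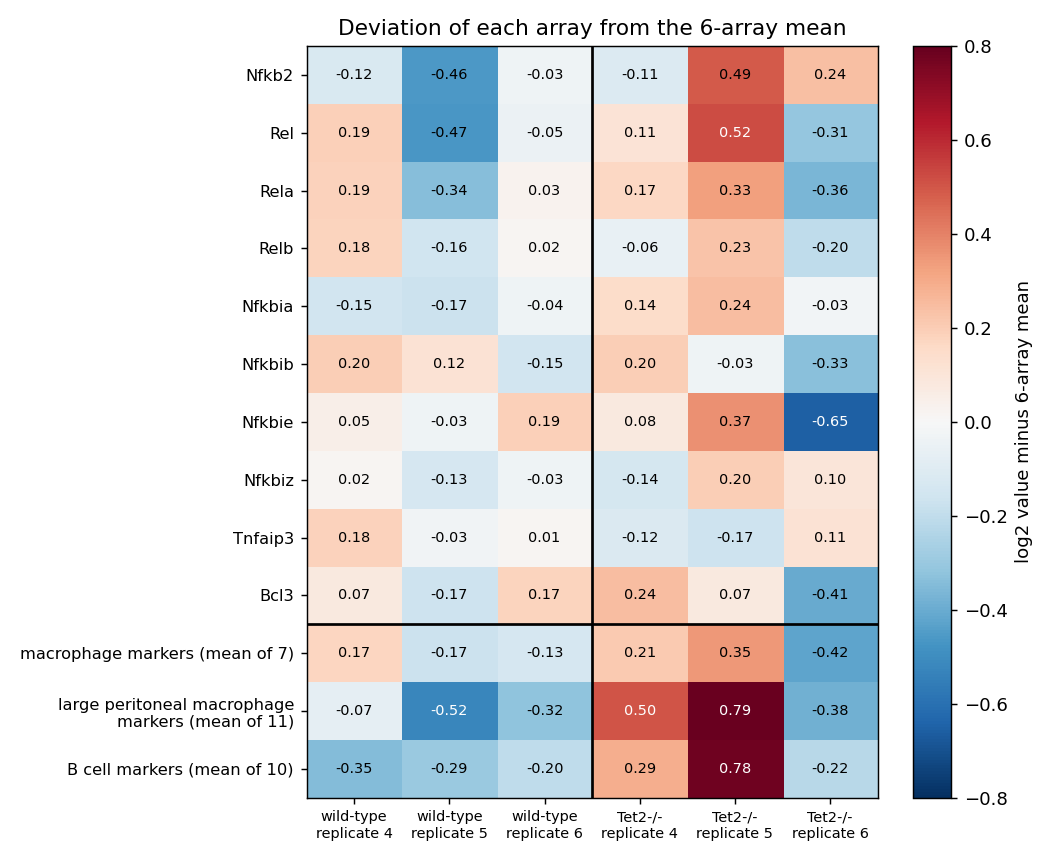
Deviation of each of the 6 arrays (columns) from the 6-array mean, in log2 units as printed and coloured, for the 10 genes and for the mean of 3 marker lists (rows). Tet2-/- replicate 5 is positive for 8 of the 10 genes and for the 3 marker lists shown. Tet2-/- replicate 6 is negative for 7 of the 10 genes and for the same 3 lists. Other marker lists are not shown. Of those, monocytes and mast cells had the same signs on these 2 arrays. T and NK cells, neutrophils and dendritic cells were negative on replicate 5 and positive on replicate 6. Eosinophils were negative on both.

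Without Tet2-/- replicate 6, 9 of the 10 genes had a higher mean in Tet2-/-, against 5 with all arrays, and Tnfaip3 was the exception at -0.20. Over all probe sets 44.5% were higher without that array. The differences were then 0.425 for Rel, 0.39 for Nfkb2, 0.32 for Nfkbia and 0.29 for Rela, with limma adjusted p-values of 0.550, 0.570, 0.483 and 0.615. At an unadjusted p under 0.05 the count was 1 of 10, Nfkbia, beside a background of 9.87%, and 0 of 10 passed the adjusted threshold beside 0.0754%. The genotypes then did not overlap for Nfkbia, which was higher, and Tnfaip3, which was lower, beside 25.7% of all probe sets.

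**Figure D4:**
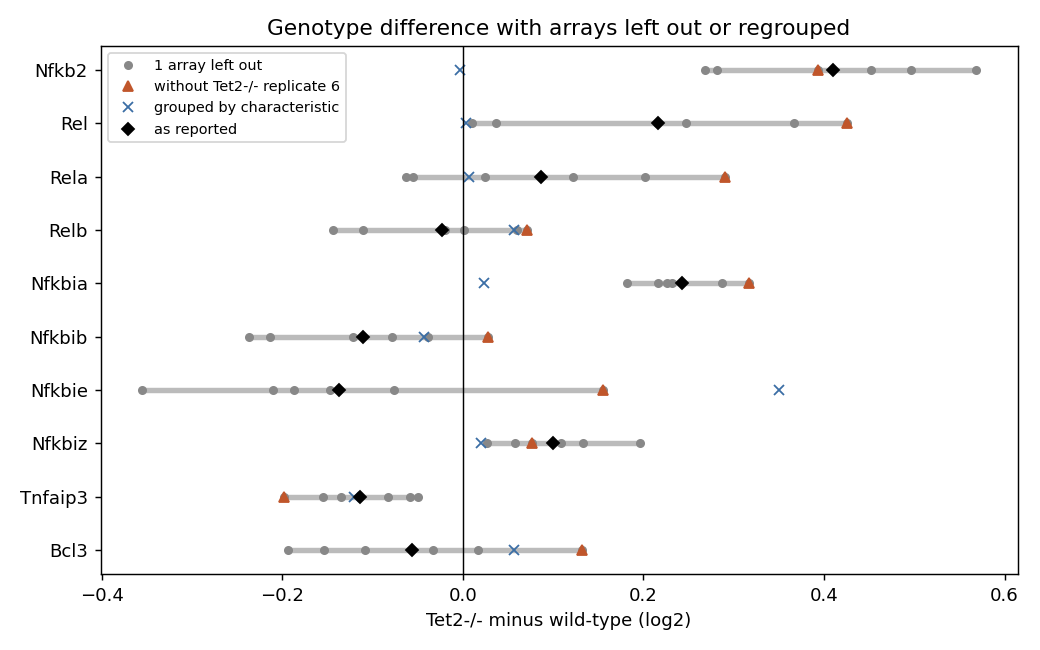
Genotype difference of each gene (x axis, log2 units) with all arrays (diamonds), with single arrays left out (grey points), without Tet2-/- replicate 6 (triangles) and grouped by the genotype characteristic (crosses). Triangles lie right of 0 for 9 of the 10 genes, and for Rela, Relb, Nfkbib, Nfkbie and Bcl3 the grey points and triangle fall on both sides of 0.

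Within the family, the array patterns of Rel and Rela were the most alike. The mean absolute distance between their deviations over the 6 arrays was 0.085 log2 units, the smallest of the 45 pairs, and the largest was 0.403, between Nfkb2 and Nfkbib. Among the subunits Rel had the largest SD over the 6 arrays, 0.357, and among the inhibitors Nfkbie had it, 0.348. Of 13493 genes with an SD of at least 0.5 times that of Rel, Stk40, Zdhhc9 and Larp1b had the patterns closest to Rel, at distances of 0.038, 0.052 and 0.057 beside a median of 0.358. Idua, Tbc1d13 and Zxdc were closest to Nfkbie among 13988, at 0.045, 0.050 and 0.052 beside a median of 0.330. Rela ranked 51 in closeness to Rel. With 6 arrays and this many genes, close patterns are found for many genes.

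The upstream pathway showed no calls either. Of 20 measured kinases and adaptors that activate NF-kB, 12 had higher and 8 lower means in Tet2-/-, with a median of 0.03. By limma 0 passed the adjusted or the unadjusted threshold, beside 0% and 3.61% of all probe sets. Myd88, the adaptor of most Toll-like receptors, read 6.69, 6.48 and 6.77 in wild-type and 7.42, 7.02 and 6.45 in Tet2-/- replicates 4, 5 and 6, a difference of 0.32. Map3k14 encodes NIK, the kinase that triggers processing of the Nfkb2 precursor, and differed by 0.25 with 3.68 to 4.49 in wild-type and 4.00 to 4.52 in Tet2-/-. Tbk1, an IkB kinase relative that drives interferon induction, differed by -0.22. A further list held Nfkbid and the NF-kB or IkB interacting genes Nkiras1, Nkiras2 and Nkrf. The subunit gene Nfkb1 was also listed but was not measured. Of the 4 measured, 1 was higher and 3 lower, with a median of -0.15, and 0 passed at either threshold. Nkiras1, a Ras-like protein that slows IkB degradation, lay between 4.32 and 4.48 in wild-type and between 4.18 and 4.21 in Tet2-/-, without overlap (difference -0.19, limma adjusted p = 0.998). It was the 1 gene of these 4 without overlap, beside 7.41% of all probe sets. Nkiras2, its paralog, and Nfkbid, a further nuclear IkB gene, differed by -0.22 and -0.10.

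Of 15 other genes listed as negative regulators, 9 were higher and 6 lower, with a median of 0.04. By limma 0 passed the adjusted or the unadjusted threshold, beside 0% and 3.61% of all probe sets. The list holds Btrc (0.13) and Fbxw11 (0.05), which encode ligases that mark IkB for destruction. Its counts are therefore not of negative regulators alone. Tax1bp1, an adaptor that works with A20, differed by -0.19, the ubiquitin ligase Itch by 0.22 and Pdlim2, which promotes nuclear RelA turnover, by 0.17.

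Among 8 receptors of the TNF family, 6 had higher means in Tet2-/- and 2 lower, with a median of 0.13. The adjusted threshold was passed by 0 of them, beside 0% of all probe sets. Tnfrsf13c, the BAFF receptor of B cells, which signals through the non-canonical pathway, read 4.45, 4.65 and 4.60 in wild-type and 5.26, 5.49 and 5.32 in Tet2-/- replicates 4, 5 and 6. All 3 Tet2-/- arrays lay above all wild-type arrays, replicate 6 included, and the difference was 0.79 ± 0.134 (standard error, limma unadjusted p = 0.000235, adjusted p = 0.483). It was the 1 gene of 8 under an unadjusted p of 0.05, beside 3.61% of all probe sets. Cd40, a co-stimulatory receptor of macrophages and B cells, differed by 0.29. Tnfrsf9, a co-stimulatory receptor of T cells, differed by -0.29, with 3.15 to 3.24 in wild-type and 2.76 to 3.09 in Tet2-/-, again without overlap, so that 2 of the 8 genes had separate genotypes beside 7.41% of all probe sets.

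Of 26 NF-kB target genes, 13 had higher means, 12 lower and 1, Tnf, the same mean, with a median difference of 0.0017. These counts include dim genes. Csf2, Il6, Il12b, Nos2 and Csf3 lay below the array's median on all 6 arrays, so their differences say little. By limma 0 passed the adjusted threshold, beside 0% of all probe sets. An unadjusted limma p under 0.05 was found for 3, beside a background of 3.61% of all probe sets in both directions. All 3 were higher in Tet2-/-, a direction that held 1.71% of all probe sets. Icam1, a leukocyte adhesion molecule, read 5.31, 5.15 and 4.98 in wild-type and 5.78, 5.85 and 5.53 in Tet2-/- replicates 4, 5 and 6. Cxcl2, a neutrophil chemokine, read 2.66, 2.78 and 3.45 in wild-type and 3.44, 4.19 and 3.80 in Tet2-/-. Il1b, which encodes interleukin-1 beta, read 3.43, 3.03 and 2.84 in wild-type and 3.65, 4.54 and 3.36 in Tet2-/-. The genotypes were separate for Icam1 and overlapped for Cxcl2 and Il1b. They were separate in the other direction for Gadd45b, a stress-induced gene, with 8.37 to 8.69 in wild-type and 7.88 to 8.34 in Tet2-/- (difference -0.35, limma unadjusted p = 0.0598, adjusted p = 0.998), which made 2 of the 26 targets without overlap, beside 7.41%. The differences of Icam1, Cxcl2 and Il1b were 0.57, 0.85 and 0.75 with standard errors of 0.150, 0.250 and 0.290, and the limma adjusted p was 0.998 for each.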

How the data were processed

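RNA of 3 wild-type and 3 Tet2-/- samples was measured on Affymetrix arrays. The deposited table holds log2 expression values which the authors made with the affy package, version 1.36.1, by RMA, as the submitters' processing notes name it. That the unit is log2 was judged from the values' range. Sources used here give neither the genome build nor whether all arrays were normalized as 1 set. RMA compresses differences near background, so differences of dim genes may be understated, and 3 arrays per group limit the precision.

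Of 25206 probe sets, 23185 had 1 gene in the platform annotation, 0 had several and 2021 stayed unnamed. All 23185 were found in the RefSeq table of GRCm38.p6. Groups follow the sample titles. All probe sets were fitted with limma 3.58.1 under R 4.3.3, using lmFit and eBayes with a two-sided test and no covariate. Benjamini-Hochberg adjustment ran over the whole table at a threshold of 0.05. The genes and lists were chosen with earlier results of these data known, and lists are described by counts and medians without a set test. Of 150 listed genes other than the 10, 141 were measured. From each pathway list the 3 genes with the smallest unadjusted p were named, from marker lists at most 3, and for Rel and Nfkbie (the subunit and inhibitor with the largest SD) the 3 genes with the closest pattern. Tnf, Gadd45b, Csf2, Csf3, Il6, Il12b, Nos2, Cd22, Itgax, Siglecf, Alox15 and Ccr2 were named after their values were seen. Nfkb1, Nkrf, Btrc and Fbxw11 were named for what they encode, outside these rules. Motif matches used RefSeq promoter windows. In simulated data for the same comparison over 25206 probe sets with 200 changed, the test called 0 of 67 genes changed by 0.5 log2 units, 38.8% of genes changed by 1, 89.4% of genes changed by 2 and 4 of 25006 unchanged ones. The noise was normal, and the changed genes were drawn only from probe sets at or above the median level. Alternatives were the grouping by characteristic, array weights, a replicate block, robust variances with an intensity trend, a second quantile normalization, centring arrays on their medians, only the brighter probe sets, an adjusted p of 0.1, a stricter motif and leaving out each array.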

Additional observations from a re-analysis of the deposited data

How the results depend on the processing

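No alternative brought any of the 10 genes past an adjusted p of 0.05, and the smallest was 0.483. Of 130 recomputed differences, 113 kept their direction and 17 turned it, all of them uncalled, and 4 genes (Rel, Nfkbia, Nfkbiz and Tnfaip3) kept it under every alternative run, though Rel fell to 0.0033 and Nfkbiz to 0.02 by characteristic. Grouped by characteristic, Nfkb2 was at -0.0033, Relb at 0.057, Nfkbie at 0.35 and Bcl3 at 0.057, and 0 of the 10 genes had non-overlapping groups (5.48% of all probe sets). With array weights, Relb was at 0.027, Nfkbib at 0.031, Nfkbie at 0.038 and Bcl3 at 0.076, 9 of the 10 genes were higher (46.2% of all probe sets) and 2 probe sets passed. With single arrays left out, differences ranged from 0.01 to 0.425 for Rel, 0.027 to 0.20 for Nfkbiz, -0.063 to 0.29 for Rela, -0.14 to 0.072 for Relb, -0.24 to 0.028 for Nfkbib, -0.355 to 0.155 for Nfkbie and -0.19 to 0.13 for Bcl3. Across the same omissions, 4 to 9 of the 10 genes were higher, beside 44.5% to 52.2% of all probe sets. Non-overlapping groups were found for 1 to 3 of the 10, beside 14.0% to 25.7% of all probe sets (3 without Tet2-/- replicate 4, beside 15.8%), and 0 to 19 probe sets passed. The 19 were found when Tet2-/- replicate 6 was omitted, and 1 when wild-type replicate 4 was. The cause was not tested. At an adjusted p of 0.1 and with the replicate number as a block, 0 probe sets passed (897 at an unadjusted p under 0.05 with the block, 910 without). Deviations of same-numbered arrays correlated at 0.15, -0.215 and 0.112 over probe sets, so the numbers were not taken as pairs, and 1 of 3 arrays of each genotype correlated best with its own number. In simulated data 0 of 67 genes changed by 0.5 log2 units were called, and the differences of the 10 genes with all arrays were at most 0.41. Under the settings of that simulation, true differences of this size would be missed by the adjusted test with 3 arrays per group. Other settings were not simulated.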
